A study of Mus musculus and Homo sapiens with 12 samples.

Results

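SIRT7 peaks of intermediate width were examined in wild-type mouse embryonic fibroblasts (MEFs). They were taken from the SIRT7 peak list on mouse build mm9 as the peaks on chromosomes 1 to 19 that were at least 2 kb and less than 5.25 kb wide. This rule kept 9466 of the 72622 peaks of the list, and of the 65422 peaks on the autosomes it kept 14.5%. The peaks were chosen by their width, so their widths and what follows directly from width are given as a description. Autosomal peaks under 2000 bp (47797) are called narrow and those of 5.25 kb or more (8159) wide.

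SIRT7 is a deacylase of the sirtuin family that resides in the nucleus and nucleolus and removes acetyl groups from lysine 18 of histone H3 (H3K18Ac). The study links it to L1 elements, the long interspersed retrotransposons that make up a large part of mammalian genomes. L1 elements copy themselves through RNA, and most genomic copies are truncated at their 5′ end while a minority are full-length. A stretch of chromatin occupied in ChIP-seq is reported as a peak, whose width depends on the length of the occupied stretch, on how the caller divides it and on sequencing depth. Genome sequence, genes and repeats of mm9 were not used here. Peaks are therefore identified by coordinates, and their overlap with L1 copies was not tested.

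The cells came from wild-type embryos of strain 129s2, 14.5 days old, at passages 2 to 3. They carry no transgene in the labels, and whether the embryos were pooled is not given in the sources used here. The series has 12 samples in 7 groups: SIRT7 ChIP in wild-type MEFs and in K562, a human leukaemia line, H3K18Ac ChIP in wild-type MEFs, in SirT7-/- MEFs and in K562, and 1 input for each cell type. The fibroblast SIRT7 list is recorded under replicate 1 and has no second list beside it. Without a replicate there is no replicate error and no p-value. Intervals in brackets are at 95% and reflect counting error alone, with each peak treated as an independent event. The list does not give the read depth.

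Intermediate peaks were the smallest part of the list by covered length. They covered 29.3 Mb, or 24.2% of the autosomal length under peaks, against 34.9% for narrow and 40.9% for wide peaks. Their median width was 2852 bp (2822 to 2880), with an interquartile range of 2305 to 3759 bp. The median was 776 bp for narrow and 6001 bp for wide peaks. They leaned to the lower limit of the range: 5248 of them (55.4%) were under 3000 bp and 1870 (19.8%) were 4000 bp or wider.

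Across the range the number of peaks fell at each of the 13 steps of 250 bp, each compared with the step below it. The lowest step, 2000 to 2249 bp, held 1982 peaks (1896 to 2071). The count was 1017 (955 to 1081) for 2500 to 2749 bp, 541 (496 to 589) for 3500 to 3749 bp and 312 (278 to 349) for the last step, from 5 kb to the upper limit. The fall was not even. In finer steps of 100 bp the number stayed almost level between 1700 and 2099 bp, with 897 peaks in the first of these steps and 867 in the last, then dropped to 409 for 2500 to 2599 bp and more slowly after that. The intermediate peaks thus begin on a shoulder of the narrow ones and run down to a low point before the wide ones, with 109 peaks at 5000 to 5099 bp. Above the range the number turned up again, to 361 (325 to 400.2) in the first step above it, 571 for 5500 to 5749 bp and 3121 for 5750 to 5999 bp.

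**Figure D1:**
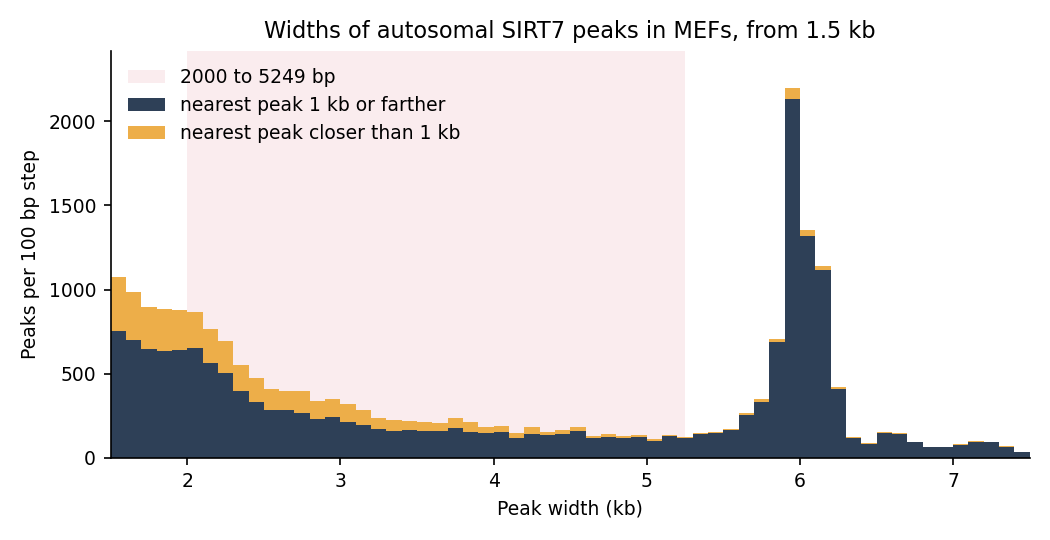
Number of autosomal SIRT7 peaks in MEFs per 100 bp step of width (x axis, kb), for peaks whose nearest peak lies closer than 1 kb (orange) and for the rest (dark), with the intermediate range shaded; peaks under 1500 bp and of 7500 bp or more are not drawn. The number falls through the shaded range from 867 in its first step (2000 to 2099 bp) to 109 for 5000 to 5099 bp, and the step of 5900 to 5999 bp holds 2199.

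The peaks at the limits of the range are given with their score, the value the authors' peak caller gave each peak. The widest narrow peaks were 1 bp under the limit (11 peaks), the first being chromosome 1, 81178353 to 81180351, scored 70.3. The narrowest intermediate ones measured 2000 bp (13 peaks), the first being chromosome 1, 13803105 to 13805104, scored 66.9. Within 50 bp of these widths the median score was 331 below the limit and 367 above it. At the upper limit the widest intermediate peaks measured 5248 bp (2 peaks), the first being chromosome 1, 106917832 to 106923079, scored 78.4. The narrowest wide ones measured 5.25 kb (6 peaks), the first being chromosome 1, 170541806 to 170547055, scored 54.4. The median score within 50 bp was 300.4 below and 270.1 above.

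The next question was how the intermediate peaks were spread over the autosomes. Their density was 3.92 per Mb (3.84 to 4.0004), counted over 2414 Mb from the first to the last peak on each autosome, and they covered 1.21% of it. Chromosome 3 was the densest, with 726 peaks or 4.64 per Mb (4.31 to 4.99), 1.198 times (1.11 to 1.29) that of the remaining autosomes. It was followed by chromosome 6 with 4.40 per Mb (4.06 to 4.75), chromosome 7 with 4.35 (4.02 to 4.70), chromosome 13 with 4.33 (3.96 to 4.73), chromosome 4 with 4.31 (3.99 to 4.66) and chromosome 1 with 4.23 (3.94 to 4.53). The intervals of these 6 chromosomes overlap, so their order is not resolved by the counts, and with width limits of 2500 and 5000 bp chromosome 6 was the densest. Chromosome 3 was also the densest in peaks of any width, with 33.0 per Mb. Intermediate peaks made up 14.1% of its peaks, 0.970 times (0.904 to 1.04) their share on the other autosomes.

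Chromosome 11 was the sparsest by a clear margin from most others. It held 303 intermediate peaks, 2.55 per Mb (2.27 to 2.86), or 0.639 times (0.568 to 0.717) that of the remaining autosomes. Chromosome 19 had 2.93 per Mb (2.51 to 3.41), which overlaps chromosome 11, and chromosome 9 had 3.23 (2.92 to 3.57). The other 10 autosomes lay between 3.64 on chromosomes 17 and 18 and 4.07 on chromosome 10. Chromosomes 3 and 11 were picked as the extremes of density, so the side of 1 on which their density ratios lie follows from the choice.

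**Figure D2:**
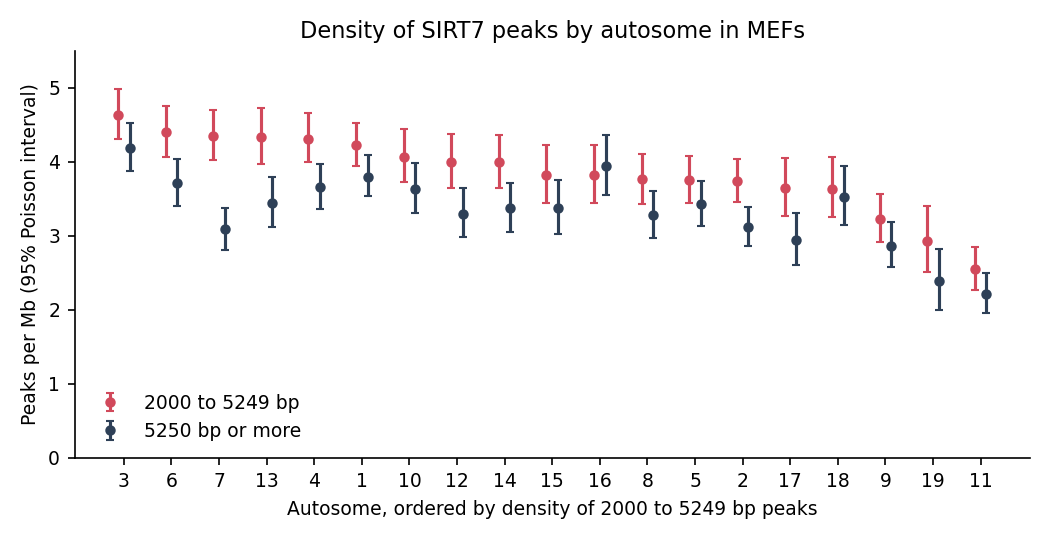
SIRT7 peaks per Mb on each mouse autosome for intermediate peaks (red) and wide peaks (dark), with 95% Poisson intervals, ordered by the density of intermediate peaks. Both densities are lowest on chromosomes 11 and 19, and chromosome 7 has many intermediate peaks (4.35 per Mb) for its wide ones (3.09 per Mb).

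Intermediate peaks outnumbered wide ones on 18 of the 19 autosomes, the exception being chromosome 16 with 364 intermediate and 376 wide peaks. The densities of both kinds ran together across the 19 autosomes, with Pearson's r of 0.836 and Spearman's rho of 0.674. Without chromosomes 11 and 19, the farthest from the median in wide peaks, r was 0.630. Against the density of narrow peaks r was 0.833 and rho 0.751, and without chromosomes 3 and 11 r was 0.664. All densities come from 1 list and share its library and mapping, so these values are descriptions.

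Chromosome 7 stood apart in makeup. Intermediate peaks made up 16.7% (15.6 to 17.95) of its peaks, 1.17 times (1.09 to 1.26) their share on the other autosomes, and there were 1.41 of them for each wide peak. On the other autosomes the share ran from 13.0% on chromosome 19 to 15.65% on chromosome 13. The intermediate peaks of chromosome 7 also had the lowest median score of the 19 autosomes, 215, where the next lowest was 272 on chromosome 17 and the highest 359 on chromosome 19. Scores of its narrow peaks (median 111) and wide peaks (259) lay within the range of the other autosomes. Chromosome 7 was singled out after its values were seen.

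Along the chromosomes the intermediate peaks thinned out from the start of the coordinates to the end. Mouse autosomes are telocentric, with the centromere at the start of the coordinates. With each autosome cut into 10 parts of equal length, the first parts together held 1228 intermediate peaks, 5.09 per Mb (4.81 to 5.38), and the last 688, 2.85 per Mb (2.64 to 3.07). The ratio was 1.78 (1.62 to 1.96), and the first part held more than the last on 16 of 19 autosomes. Chromosomes 10, 14 and 17 were the exceptions, with 49 against 58, 33 against 59 and 16 against 24 peaks. The ratio was 1.61 (1.54 to 1.68) for narrow and 2.00 (1.79 to 2.22) for wide peaks, so the gradient is one of the whole list. The fall was not steady, since the sixth part, with 4.47 per Mb (4.21 to 4.74), lay above the 3 before it. Median widths were alike in all 10 parts, from 2794 to 2903 bp, whereas the median score was lowest in the first part at 247 and highest in the ninth at 342. Narrow and wide peaks also had their lowest median score in the first part, at 106 and 259.

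It was then asked how far the intermediate peaks lay from wide ones. The gap from edge to edge to the nearest wide peak on the same chromosome had a median of 75.7 kb (73.2 to 78.1), with quartiles of 30.3 and 168 kb. Narrow peaks had a median of 82.0 kb (80.9 to 83.2), and wide peaks lay 74.5 kb (71.8 to 76.6) from the nearest other wide peak. The interval of the intermediate median overlaps that of wide peaks and lies below that of narrow peaks. Across the autosomes their median gap ran from 63.9 kb on chromosome 4 to 117.0 kb on chromosome 19.

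The difference from narrow peaks was concentrated at short range. Of the intermediate peaks 83 (0.877%, 0.699 to 1.09) lay within 1 kb of a wide peak, against 136 (0.285%, 0.239 to 0.336) of the narrow ones, a ratio of 3.08 (2.35 to 4.05). For wide peaks beside another wide peak the share was 0.441%, and the ratio of intermediate to wide peaks was 1.99 (1.35 to 2.94). Within 10 kb the shares were 9.45% (895 peaks, 8.87 to 10.1) and 7.22% (6.99 to 7.46), a ratio of 1.31 (1.22 to 1.404), and for wide peaks beside another wide peak 9.06% (8.44 to 9.70). Beyond 10 kb no such excess was seen: between 10 and 20 kb lay 7.997% of intermediate and 8.14% of narrow peaks, a ratio of 0.983 (0.912 to 1.06), and between 20 and 50 kb 20.2% and 19.9%. Almost all intermediate peaks, 98.5%, had a wide peak within 1 Mb. The most distant lay 3560 kb from one, on chromosome 2 from 167345954 to 167348794.

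**Figure D3:**
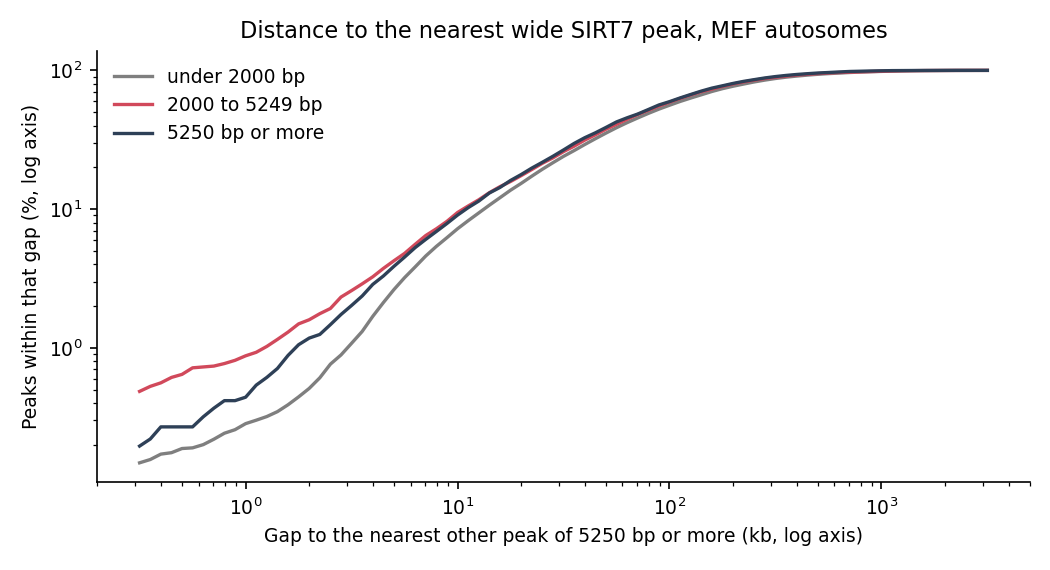
Share of autosomal peaks (%, log axis) whose gap to the nearest other wide SIRT7 peak is at most the value on the x axis (kb, log axis), for narrow (grey), intermediate (red) and wide (dark) peaks. The curves part at short range, with 0.877% of intermediate and 0.285% of narrow peaks within 1 kb, and lie close together on the log axis at 100 kb (58.9% and 56.1%).

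The excess within 10 kb held on most chromosomes and for most ways of measuring it, but its size depends on them. The ratio of intermediate to narrow peaks was above 1 on 17 of 19 autosomes, from 0.851 (0.510 to 1.42) on chromosome 11 and 0.993 on chromosome 7 to 1.85 (1.0996 to 3.11) on chromosome 19, with the whole interval above 1 on 7 autosomes. Compared within 1 Mb bins (Mantel-Haenszel ratio), which compares peaks of the same bin, it was 1.28. Against narrow peaks of 1 kb or more only it was 1.12 (1.03 to 1.21). Measured between peak centres, which lengthens the distance for wider peaks, the share of intermediate peaks within 10 kb was 4.55% and the ratio 1.12. Within the range the share did not follow width: over the 13 width steps it lay between 7.43% and 11.5% in no order, and the median gap between 64.2 and 88.9 kb.

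The closest pairs were separated by a few bases. On chromosome 16 an intermediate peak of 3078 bp from 48538800 to 48541877 ended 4 bp before a wide peak of 6068 bp, with scores of 142 and 90.4. Also on chromosome 16, a peak of 3950 bp from 83946297 to 83950246 ended 6 bp before a wide peak of 7399 bp. On chromosome 14 a peak of 2919 bp from 106366414 to 106369332 began 11 bp after a wide peak of 7180 bp. On chromosome 1 a peak of 2583 bp from 21569389 to 21571971 ended 11 bp before a wide peak of 6839 bp. The last, of 2074 bp, lay on chromosome 12 from 70065828 to 70067901, 15 bp after a wide peak of 7699 bp. All 5 intermediate peaks had scores between 75.9 and 147, below the median of their kind.

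Near wide peaks scores were lower, chiefly at gaps of up to 5 kb. Intermediate peaks within 1 kb of a wide peak had a median score of 104 (95.4 to 117). Those at 1 to 5 kb had 219 (188 to 239). The median was 270 (240 to 304) at 5 to 10 kb and 291 (272 to 313) at 10 to 20 kb. It was 278 (264 to 289) at 20 to 50 kb and 286 (272 to 299) at 50 to 100 kb. At 100 to 1000 kb it was 322 (313 to 331). Those within 1 kb are part of the 2396 intermediate peaks with any neighbour closer than 1 kb, whose median was 148 (143 to 153). The wide peaks nearest to the 83 intermediate peaks closer than 1 kb were low too, with a median score of 113. The median was 146 (140 to 159) for wide peaks with any neighbour closer than 1 kb and 266 for all wide peaks. Of those 83, 21 had a nearest wide peak of 6.25 kb or more, or 25.3% (16.4 to 36.0), where such peaks made up 16.4% (15.6 to 17.3) of all wide peaks. That interval just reaches into the background share. The share was 16.0% (13.6 to 18.7) for gaps of 1 to 10 kb, 14.6% (13.6 to 15.7) for 10 to 100 kb and 19.4% (18.2 to 20.7) over 100 kb, so a raised share was not limited to close pairs.

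Many intermediate peaks also lay beside another peak of any width. A neighbour closer than 1 kb was found for 2396 of them, or 25.3% (24.4 to 26.2). The share was 21.1% (20.7 to 21.4) for narrow and 3.06% (2.70 to 3.46) for wide peaks. Inside the range it was 26.1% for 2000 to 2249 bp, reached its highest value of 31.8% for 3000 to 3249 bp and was 8.97% in the last step. With the list limited to scores of at least 100 it was 9.72%. That limit also removes neighbours that score under 100, so the share is lower in part by construction.

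Intermediate peaks were next to each other more often than their number in the list would give. Of the peaks that flank an intermediate peak on either side, 19.8% were intermediate, 67.3% narrow and 12.9% wide, where the autosomal list holds 14.5%, 73.1% and 12.5%. Among flanking peaks closer than 1 kb, 44.0% (1088 of 2473) were intermediate, and among those 1 kb or farther 16.1%. The flank closer than 1 kb was intermediate in 12.3% of cases for narrow peaks and in 32.5% (83 of 255) for wide peaks. The other kinds also lay beside their own kind more often than their share of the list. Of all flanking peaks, 14.8% were wide for wide peaks and 74.7% were narrow for narrow peaks. Runs of 3 or more intermediate peaks in a row numbered 284, a count for which no expected number was computed. The longest held 7 peaks and occurred 3 times, on chromosome 4 from 8185144 to 8325302, on chromosome 6 from 20036448 to 20116465 and on chromosome 17 from 23236071 to 23341284.

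When peaks closer than 1 kb were joined, the stretches that held an intermediate peak often reached the length of wide peaks. There were 1848 such stretches, 1711 of them of 2 peaks, and 82 contained a wide peak. Of the 1766 without one, 646 (36.6%, 34.3 to 38.9) spanned 5.25 to 6.25 kb, against 465 for 4.25 to 5.25 kb and 105 for 6.25 to 7.25 kb, which gives ratios of 1.39 (1.23 to 1.57) and 6.15 (4.999 to 7.64). Spans depend in part on the width rule, since 2 joined intermediate peaks span at least 4000 bp. The commonest span was 5900 to 5999 bp, with 108 stretches. The same step was the commonest width, from 4000 bp up, of peaks that stood alone, with 2133 peaks. The stretches of 5.25 to 6.25 kb took in 975 intermediate peaks, 10.3% of all.

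**Figure D4:**
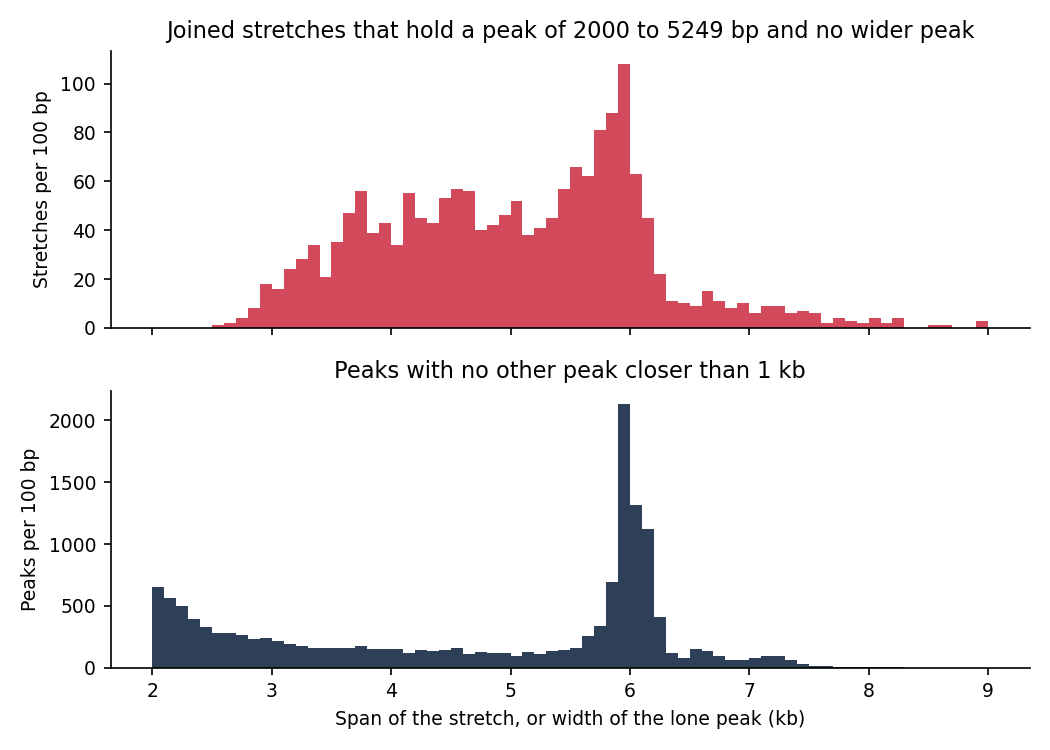
Top, spans of stretches made by joining SIRT7 peaks closer than 1 kb that hold an intermediate peak and no wide peak; bottom, widths of peaks with no other peak closer than 1 kb; both per 100 bp step (x axis in kb, separate y axes). Both distributions have their highest step above 4 kb at 5900 to 5999 bp, with 108 stretches and 2133 peaks, and fall off beyond 6.25 kb.

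The joined pairs were nearly continuous. In the 1636 pairs without a wide peak the median gap was 121 bp (quartiles 43 and 314), and peaks covered a median of 97.5% of the span. Peaks were joined only across gaps under 1 kb, so a high covered share follows in part from the rule. An intermediate and a narrow peak made up 1116 of these pairs, with median widths of 2773 and 1291 bp, and 520 consisted of 2 intermediate peaks. The intermediate peak came first along the chromosome in 567 of the 1116, or 50.8% (47.8 to 53.8), an interval that includes an equal split. Of the 582 pairs that spanned 5.25 to 6.25 kb, 317 consisted of 2 intermediate peaks.

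Scores differed between the intermediate peaks that stood alone and those that had a close neighbour. The median score over all of them was 295 (289 to 302), with quartiles of 162 and 451, against 114 for narrow and 266 for wide peaks. The 7070 that stood alone had a median of 364 (359 to 370), 2.46 times the 148 (143 to 153) of the 2396 with a neighbour closer than 1 kb. The corresponding ratio was 1.20 for narrow and 1.84 for wide peaks. A score of 500 or more was reached by 1732 (24.5%) of the intermediate peaks that stood alone and by 8 (0.334%) of the others. The ranges overlapped, with a lower quartile of 234 for those that stood alone and scores of up to 732 for the others. In all 13 width steps the median was higher for the peaks that stood alone.

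Among the intermediate peaks that stood alone, score went down, unevenly, as width went up. Within the range the median was 432 at 2000 to 2249 bp, the highest of the 13 steps. It was 389 at 2500 to 2749 bp, 333 at 3500 to 3749 bp and 301 in the last step. Wide peaks that stood alone were near that, with 281 in the first step above the range. The spread within the range narrowed as well, from quartiles of 276 and 552 in the first step to 240 and 353 in the last. For intermediate peaks with a close neighbour the medians went the other way, unevenly. They were 128 in the first step, 161 at 3000 to 3249 bp, 177 at 4500 to 4749 bp and 166 in the last step. Score and width come from the same peak calls, so these values describe the list.

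**Figure D5:**
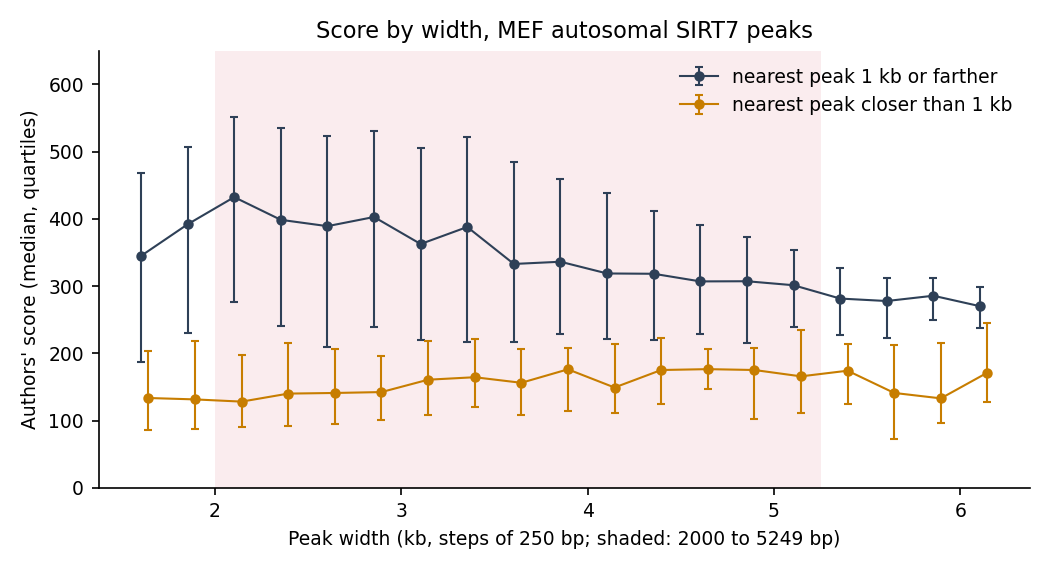
Median and quartiles of the authors' score (y axis) for autosomal SIRT7 peaks in MEFs by 250 bp step of width (x axis, kb), for peaks whose nearest peak is 1 kb or farther (dark) and closer than 1 kb (orange), with the intermediate range shaded. Within the range the dark medians fall from 432 to 301 and the orange ones stay between 128 and 177.

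The highest scores among intermediate peaks lay on 5 different chromosomes. A peak of 2062 bp on chromosome 17 from 39983198 to 39985259 had a score of 2413, and its nearest peak was 2.22 kb away. It was followed by a peak of 2427 bp on chromosome 5 from 4052147 to 4054573 (1928), one of 2304 bp on chromosome 15 from 74915544 to 74917847 (1564), one of 3277 bp on chromosome 6 from 47686972 to 47690248 (1498) and one of 4184 bp on chromosome 18 from 4195022 to 4199205 (1427). All 5 stood alone, and their gaps to the nearest wide peak ran from 23.4 to 108 kb.

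Intermediate peaks were unevenly spread at the scale of 1 Mb. Over the 2414 autosomal 1 Mb bins that held a peak, the median was 3 intermediate peaks and the variance was 2.54 times the mean. None was found in 265 bins, and 143 bins held 10 or more, with 1668 intermediate peaks between them. Bins without one had a mean of 1.49 wide and 9.98 narrow peaks, and bins with 10 or more had 5.01 and 30.2. The rank correlation across bins was 0.474 with the number of wide peaks and 0.624 with the number of narrow peaks, as a description over bins that share a library.

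The fuller the bin, the lower was the score of its intermediate peaks. The median score went from 363 (353 to 374) in bins with 1 to 3 of them, through 317 (308 to 327) with 4 to 6 and 265 (254 to 280) with 7 to 9, to 203 (192 to 215) with 10 or more. The share with a neighbour closer than 1 kb rose over the same bins from 17.1% to 31.5%. Among those that stood alone the median still went from 404 to 268. Narrow peaks of these bins went from 119 to 103 and wide peaks from 270 to 255. Widths did not move, with medians of 2830 to 2876 bp.

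The bin with most intermediate peaks was 66 to 67 Mb of chromosome 13. It held 23 of them among 51 peaks (45.1%), with 24 narrow and 4 wide ones. Their widths ran from 2021 to 4613 bp, and 20 of the 23 had scores under 200, with a median of 99.9. None had a neighbour closer than 1 kb, and 3 lay within 10 kb of a wide peak. Examples are a peak of 4592 bp from 66317096 to 66321687 with a score of 94.4 and one of 3876 bp from 66882955 to 66886830 with a score of 150.5. The highest score there was 330.0, on a peak of 2158 bp from 66667899 to 66670056.

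The next bins differed from it in spacing. The bin at 119 to 120 Mb of chromosome 1 held 19 intermediate peaks among 63, of which 7 had a neighbour closer than 1 kb, with a median score of 160 and a median width of 3485 bp. The bin at 23 to 24 Mb of chromosome 7 held 17 among 62, of which 9 had such a neighbour, with a median score of 96.8. The bin at 12 to 13 Mb of chromosome 3 also held 17, among 60, of which 8 had such a neighbour, with a median score of 180. In all 10 of the fullest bins the median score of intermediate peaks lay between 96.8 and 221, below their overall median of 295.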

How the data were processed

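The values were the position of each peak and its score, as deposited by the authors, from the SIRT7 ChIP of wild-type MEFs. Per the submitters' processing notes, which give no role or order, the tools were MACS 1.4.2, Bowtie, deepTools 2.4.2, SAMtools 0.1.19, Trimmomatic 0.36 and FastQC 0.11.3, with hg19 and mm9 as builds. Settings, the control and any pooling of replicates were not given in the sources used here. Per the labels' protocols, nuclear extracts were crosslinked with 1% formaldehyde for 10 minutes and sonicated to 150 to 300 bp. The lowest score of the list was 50, and no peaks overlapped. The number, width and division of peaks depend on read depth and on the caller's threshold, and reads from repeats may be placed ambiguously.

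Width is end minus start of the deposited intervals, and positions are printed counting from 1. Gaps are the bases between peak edges. Intervals are exact Poisson (densities), exact conditional (ratios of densities), Clopper-Pearson (shares), log-scale (ratios of shares) or order-statistic (medians), all at 95%. Chromosome length is the span from first to last peak. Calculations, tested on simulated data, used scipy 1.17.1, pandas 2.3.3 and numpy 2.4.6 under Python 3.11.15, with figures from matplotlib 3.10.9.

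The intermediate peaks, the comparisons and the alternatives were chosen with earlier results of these data known. Peaks were named by rule: the 5 highest scores, the peaks at each width limit, the 5 smallest gaps to a wide peak, the farthest peak, the 3 fullest 1 Mb bins (4 with a tie) and the longest run. Alternatives concern the score threshold, joining, width limits, distances, bins and recurring pairs (neighbouring peaks whose widths and gap equal those of another pair). H3K18Ac and input libraries were not analysed here, and the K562 list was used only for its peaks in the same width range.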

Additional observations from a re-analysis of the deposited data

Results flagged for a closer look

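Peaks of 2 to 5.25 kb outside the autosomes were not used in the comparisons above and are given as values. They are listed because a signal was present in data that the comparisons did not use. The MEF X chromosome held 1055 such peaks, 15.0% (14.1 to 15.8) of its 7053 peaks and 6.45 per Mb (6.06 to 6.85), which is 1.64 times (1.54 to 1.75) the autosomal density. Their median width was 2792 bp and their median score 260. The X share of 15.0% was close to the 14.5% on the autosomes, so the higher density on the X went with more peaks in total. The MEF Y chromosome held 30 among 147 peaks, or 20.4% (14.2 to 27.8). In the K562 list 2065 of 44319 peaks (4.66%, 4.47 to 4.86) fell in the same width range, with a median width of 2647 bp. The K562 list comes from another species and an unknown depth, and it was not compared with the MEF list.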

How the results depend on the processing

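With width limits of 2500 and 5000 bp intermediate peaks numbered 5795 and their median score was 282. With scores of at least 100, or at or above the list median, the median width was 2890 and 2903 bp, the median gap to a wide peak 81.5 and 92.1 kb and the share within 10 kb 8.05% and 6.88%. The share with a neighbour closer than 1 kb was 9.72% with scores of at least 100. Both score settings keep fewer wide peaks and fewer neighbouring peaks by construction. Merging peaks closer than 1 kb first gave a median width of 2907 bp and a gap of 67.8 kb. Between centres the gap was 80.2 kb and the share 4.55%, and with wide peaks of 5.25 to 6.25 kb only they were 89.9 kb and 7.89%. Within 5 and 20 kb the shares were 4.24% and 17.5%. The ratio to narrow peaks stayed above 1 in every setting run: 1.61 within 5 kb, 1.14 within 20 kb, 1.16 with scores at or above the list median, 1.121 between centres and 1.116 against narrow peaks of 1 kb or more. Settings added after the data were seen gave 1.24 (within 200 kb bins), 1.27 (peaks that stood alone) and 1.28 (scores at or above the median of narrow peaks, in both kinds). A neighbour was found for 22.0% with a gap of 500 bp and 29.7% with 2 kb. Intermediate peaks that stood alone had a median score of 364. Chromosome 11 was the sparsest in every setting run; chromosome 3 was the densest except with width limits of 2500 and 5000 bp, where chromosome 6 was. Leaving out recurring pairs removed 6 intermediate peaks. Where no construction is named, the cause was not tested. No paired analysis was possible because the fibroblast peaks came as a single list, while the labels number 2 SIRT7 replicates. Unknown read depth limits every number and width, and a region without an intermediate peak is not shown to lack SIRT7.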
